A study of Mus musculus with 6 samples.

Results

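The desmosome is the spot-like adhesive junction of epithelia and heart muscle, and its components were read here by 22 probe sets for 10 genes, of 45101 probe sets and 18193 singly annotated genes on the array. A probe set was taken if the platform annotation named Dsp, Dsg2, Dsc2, Jup, Pkp1, Pkp2, Pkp3, Ppl, Evpl or Perp and no other gene. The arrays came from 393P, a mouse lung cancer cell line kept in RPMI medium with fetal bovine serum. There were 3 Zeb1 vector arrays, from cells with stable, constitutive expression of Zeb1, and 3 control vector arrays, from cells that stably carried pcDNA, the vector alone. Both were made by lipid transfection and differ by label in the vector only. Zeb1 is a zinc-finger repressor of epithelial genes, and the question posed is which transcripts differ once it is expressed. The arrays are replicate cultures. The sources used here do not say whether the stable cells were clones or pools, nor how many transfections were made, so p-values measure the spread between cultures of these lines.

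In a desmosome, the desmosomal cadherins (desmogleins and desmocollins) bind the neighbouring cell, their tails bind the armadillo proteins plakoglobin and plakophilin, and these bind desmoplakin, a plakin that holds the keratin filaments. Envoplakin and periplakin are plakins found at desmosomes and in the cornified envelope of stratified epithelia, and Perp is a tetraspan membrane protein of desmosomes. Simple epithelia such as lung use desmoglein 2, desmocollin 2 and plakophilin 2, and desmosomes are known to be lost when epithelial cells become mesenchymal. Zeb1 is known to bind E-boxes of the sequence CACCTG.

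Of the 10 genes, Dsp and Jup had a promoter window in the RefSeq table (build GRCm38.p6), each of 300 bases with 250 before and 50 after the transcription start. Both are shown because no other member had a window. Each is printed up to base 30 after the start, with CACCTG or its reverse complement CAGGTG in capitals where either was found. The Dsp window lies on the plus strand at chr13:38151044-38151323 and the Jup window on the minus strand at chr11:100397761-100398040.
Dsp: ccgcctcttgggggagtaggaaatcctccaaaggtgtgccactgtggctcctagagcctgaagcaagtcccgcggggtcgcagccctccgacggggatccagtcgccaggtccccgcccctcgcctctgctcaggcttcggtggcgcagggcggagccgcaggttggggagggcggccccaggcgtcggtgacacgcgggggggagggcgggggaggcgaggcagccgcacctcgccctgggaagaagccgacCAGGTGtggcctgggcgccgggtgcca
Jup: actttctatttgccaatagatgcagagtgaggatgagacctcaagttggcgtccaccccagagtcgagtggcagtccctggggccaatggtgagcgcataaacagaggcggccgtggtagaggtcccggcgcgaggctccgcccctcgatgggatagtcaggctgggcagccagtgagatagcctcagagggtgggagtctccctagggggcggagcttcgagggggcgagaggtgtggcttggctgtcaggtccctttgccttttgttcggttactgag
The Dsp window held 1 match, CAGGTG at bases 4 to 9 after the start, and the Jup window held 0. Among all 32851 promoter windows listed, 20.2% held the motif on either strand. A match describes the letters in the window and is not a measured binding site.

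Signals are log2 MAS5 values, scaled by the authors to the same trimmed mean on each array, and values under log2 4.45 (the 25th percentile of all values) were raised to that floor. The brightest of 4 Zeb1 probe sets read 9.71, 9.59 and 9.78 on the Zeb1 vector arrays, against 4.45, 4.45 and 4.50 on the control vector arrays, where 2 of the 3 lay at the floor. Tested probe sets correlated at r = 0.979 to 0.984 between arrays of 1 group and at 0.867 to 0.873 between groups, taken over probe sets, whose values do not count as independent replicates. The epithelial keratins Krt8 and Krt18 were high in both groups, while Nkx2-1, the lung lineage factor, lay at the floor on 2 Zeb1 vector arrays and 1 control vector array. The summed signal of 7 lung epithelium markers was 47681 to 50956 in Zeb1 cells and 78600 to 84003 in control cells. Most of that difference lay in Epcam (74.3 to 129 in Zeb1 cells, 12846 to 14306 in control cells) and Cdh1 (1072 to 1289 and 18219 to 18910). Krt8 was slightly lower in Zeb1 cells, Sftpb was higher (334 to 372 against 245 to 312), and Nkx2-1, Sftpc and Krt18 overlapped. The summed signal of 4 stratified epithelium markers was 277 to 368 in Zeb1 cells and 620.5 to 700 in control cells. In that list Krt14 alone separated the groups, at 33.1 to 52.7 in Zeb1 cells and 344 to 376 in control cells, while Krt5, Trp63 and Dsc3 overlapped. The summed signal of 3 cardiac muscle markers was 2469 to 2854 in Zeb1 cells and 3103 to 3589 in control cells, nearly all of it Tnnt2 (2354 to 2747 in Zeb1 cells and 3004 to 3435 in control cells), with Myh6 near the floor and Actc1 overlapping. The part of these shifts in the results was not tested. Sums overlapped between the groups for 6 fibroblast, 4 leukocyte and 3 endothelial markers, and Pdgfrb and Pecam1 were at the floor on all 6 arrays. Among these markers Col1a1 alone separated the groups, at 48.3 to 78.9 in Zeb1 cells and 32.1 to 47.4 in control cells. Its signal was low and it was not tested.

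Desmosome genes fell in Zeb1 cells with a single exception. By the brightest tested probe set of each gene, 9 of 10 genes fell and 1, Dsc2, rose, where 23.5% of all 11893 tested genes fell and 25.8% rose (limma, adjusted p under 0.05). The median log2 change of the 10 genes, Zeb1 vector minus control vector, was -1.43, beside 0.01 over all tested genes. A called fall of at least 2-fold was seen in 7 of the 10 genes and in 6.79% of all tested genes, and a called fall of at least 8-fold in 4 of the 10 (Dsp, Pkp3, Dsg2 and Perp) and in 1.27% of all. Pkp3 passed the filter, described next, through its control vector arrays only, so it had to differ; of the other 9 genes 8 fell, 3 of them at least 8-fold, with a median of -1.39. Of the 22 probe sets 20 were tested, those that reached the array median on at least 3 arrays. Among these 17 fell, 2 rose and 1 was not called, and 5 of the 17 (2 of Pkp3, 3 of Dsg2) reached the median on control vector arrays only. Those 5 thus had to differ, and of the other 15 tested probe sets 12 fell. Over all tested probe sets, 21.6% fell and 24.5% rose. The arrays of the groups did not overlap on 19 of the 20, against 55.4% of all tested probe sets. Nor did they overlap on the brightest probe set of any of the 10 genes, against 58.2% of all genes. The 19 include the 5 probe sets, and the 10 genes include Pkp3, that had to differ because of the filter. In bulk RNA, fewer cells with a transcript and less of it per cell cannot be told apart.

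**Figure D1:**
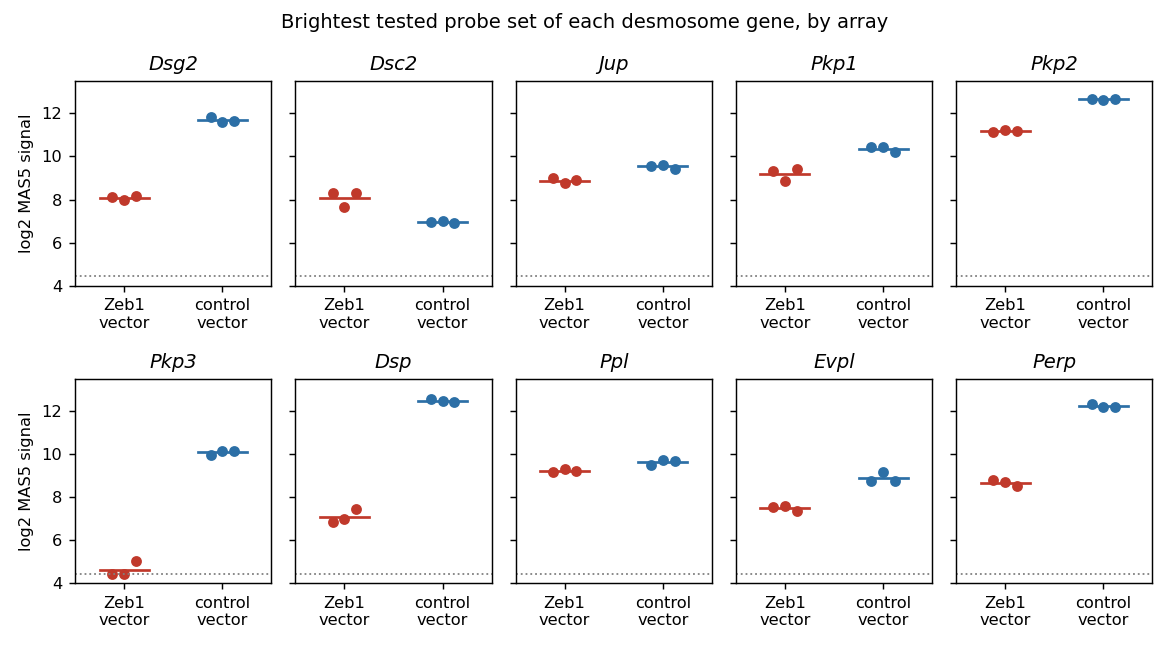
Log2 MAS5 signal (vertical axis) of the brightest tested probe set of each desmosome gene on the 3 Zeb1 vector arrays (red) and the 3 control vector arrays (blue), with horizontal bars at group means and a dotted line at the floor of 4.45. The groups separate for all 10 genes, with Zeb1 cells above control cells for Dsc2 alone.

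The desmosomal cadherins went opposite ways. Desmoglein 2, Dsg2, the desmoglein of simple epithelia and heart, read 8.11, 7.99 and 8.15 on the Zeb1 vector arrays, against 11.83, 11.62 and 11.67 on the control vector arrays. Every Zeb1 vector array lay far below every control vector array, and the gene was 12.3-fold lower (log2 change -3.62, SE 0.096, adjusted p = 5.64e-09). Its signal in Zeb1 cells stayed well above the floor. The 4 other tested probe sets of Dsg2 fell too, with log2 changes of -3.20 (1425619_s_at), -3.18 (1449740_s_at), -2.84 (1449741_at) and -1.75 (1460380_at). The smallest of these, on 1460380_at, read 5.88, 5.44 and 5.81 in Zeb1 cells and 7.21, 7.21 and 7.95 in control cells. On 1425619_s_at, 1449741_at and 1460380_at the Zeb1 vector means were between 5.62 and 5.99, under the 50th percentile of all values (6.32), so these changes are lower bounds, and they passed the filter through control vector arrays only. The last Dsg2 probe set, 1426153_a_at, was at the floor on 2 arrays of each group and was not tested.

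Desmocollin 2, Dsc2, the partner cadherin of Dsg2 in simple epithelia, read 8.31, 7.63 and 8.29 on the Zeb1 vector arrays, against 6.95, 7.01 and 6.91 on the control vector arrays. The groups did not overlap, with Zeb1 vector replicate 2 the lowest of its group, and the gene was 2.17-fold higher (log2 change 1.12, SE 0.209, adjusted p = 0.00165). On its other probe set, 1421156_a_at, it read 7.67, 7.34 and 7.95 in Zeb1 cells and 6.37, 6.48 and 7.25 in control cells. There Zeb1 vector replicate 2 lay just above control vector replicate 3, and the rise of 0.95 (SE 0.271, adjusted p = 0.0163) was no longer called when control vector replicate 1 or 2, or Zeb1 vector replicate 1 or 3, was left out (adjusted p = 0.0598, 0.0518, 0.0513 and 0.0676). That call was also lost with the floor at the 50th percentile (adjusted p = 0.109) and with no filter (adjusted p = 0.102).

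Dsc2 and Dsg2 stand in 1 cluster of desmosomal cadherin genes, whose order in the RefSeq table of GRCm38.p6 is Dsc3, Dsc2, Dsc1, Dsg1c, Dsg1a, Dsg1b, Dsg4, Dsg3 and Dsg2. None of the genes between Dsc2 and Dsg2 with a probe set was tested: Dsg1b was at the floor on all 6 arrays, Dsc1 on 2 arrays of each group, and Dsg1a on 2 Zeb1 vector arrays and 1 control vector array. Dsc3, a desmocollin of stratified epithelia, read 6.08, 6.43 and 5.51 in Zeb1 cells and 6.10, 6.05 and 6.14 in control cells, below the filter and with overlapping groups. The neighbour of the cluster on the Dsc3 side, the classical cadherin gene Cdh2 (N-cadherin), rose by 4.89 on the log2 scale (adjusted p = 9.46e-10). Beyond Dsg2, Ttr was not tested, and B4galt6 and Trappc8 rose by 3.29 and 0.70 (adjusted p = 4.24e-06 and 9.81e-05). Rnf125 rose by at least 3.09 from a low control signal. It passed the filter through Zeb1 vector arrays only, so it had to differ and its p-value is not given. Dsg2 was the only called gene among the 17 in this window that fell.

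**Figure D2:**
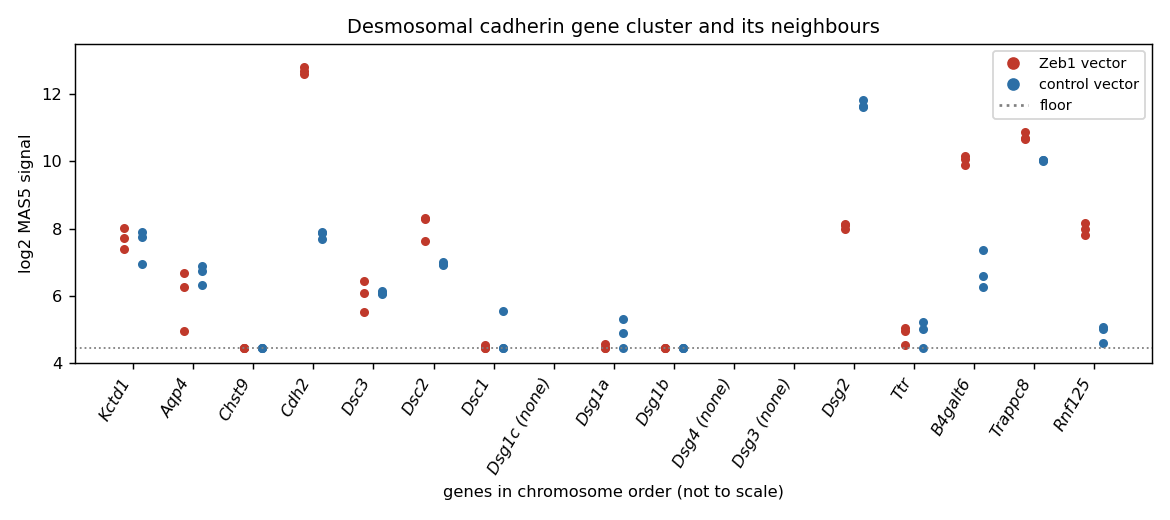
Log2 MAS5 signal of each gene in the desmosomal cadherin cluster and of 4 neighbours on each side, in chromosome order (horizontal axis, not to scale), on Zeb1 vector arrays (red, left) and control vector arrays (blue, right); genes marked "none" had no probe set of their own. Dsg2 is lower in Zeb1 cells, while Cdh2, Dsc2, B4galt6, Trappc8 and Rnf125 are higher.

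All 4 armadillo protein genes fell, with log2 changes of -5.45 to -0.65. Plakophilin 3, Pkp3, which binds most desmosomal cadherins and is found in nearly all epithelia, read 4.45, 4.45 and 5.02 on the Zeb1 vector arrays, against 9.96, 10.12 and 10.17 on the control vector arrays. With 2 of the 3 Zeb1 vector arrays at the floor it was at least 43.7-fold lower (log2 change -5.45), and raising the floor to the 50th percentile gave a log2 change of -3.76. Its other probe set, 1418832_at, was at the floor on all 3 Zeb1 vector arrays and read 8.74, 8.76 and 8.95 on the control vector arrays, at least 20.7-fold lower. Both probe sets entered the test through the control vector arrays only, and neither was tested when signal at the median was asked of all 6 arrays, so their p-values are not given. The higher floor gave -2.50 there in place of -4.37.

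Plakophilin 2, Pkp2, the plakophilin of simple epithelia and heart, read 11.13, 11.23 and 11.19 on the Zeb1 vector arrays, against 12.65, 12.64 and 12.65 on the control vector arrays. It was 2.76-fold lower (log2 change -1.46, SE 0.059, adjusted p = 6.3e-08) with a small spread in both groups, and its signal in Zeb1 cells remained high. The probe sets 1429183_at and 1420259_at fell by 1.49 and 1.93 on the log2 scale. The remaining probe set, 1460511_at, was low in both groups and was not called, with 6.39, 6.73 and 6.32 in Zeb1 cells and 6.67, 6.24 and 6.20 in control cells (log2 change 0.11, adjusted p = 0.757).

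Plakophilin 1, Pkp1, known best from the suprabasal layers of skin, read 9.34, 8.84 and 9.43 on the Zeb1 vector arrays, against 10.43, 10.46 and 10.21 on the control vector arrays. It was 2.25-fold lower (log2 change -1.17, SE 0.154, adjusted p = 0.000189). Plakoglobin, Jup, which joins both desmosomes and adherens junctions and is a close relative of beta-catenin, read 8.98, 8.75 and 8.91 in Zeb1 cells and 9.58, 9.60 and 9.43 in control cells. Its fall was 1.57-fold (log2 change -0.65, SE 0.108, adjusted p = 0.000794). For both genes the groups stood apart, and neither came near the floor.

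All 3 plakin genes fell, with log2 changes of -5.37 for desmoplakin, -1.39 for envoplakin and -0.41 for periplakin. Desmoplakin, Dsp, the obligate link to keratin filaments, read 6.85, 6.99 and 7.47 on the Zeb1 vector arrays, against 12.56, 12.45 and 12.40 on the control vector arrays. It was 41.3-fold lower (log2 change -5.37, SE 0.151, adjusted p = 7.79e-09), a larger fall than in all but 0.277% of tested genes. The second probe set, 1435493_at, read 7.27, 7.17 and 7.53 in Zeb1 cells and 12.09, 12.06 and 12.12 in control cells, 27.3-fold lower (adjusted p = 3.09e-09). The third, 1427610_at, was dim and not tested; it was at the floor on 2 Zeb1 vector arrays and at 5.19 on the other, against 6.71, 6.25 and 7.25 on the control vector arrays. All 3 Dsp probe sets were thus lower on every Zeb1 vector array than on any control vector array.

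Envoplakin, Evpl, read 7.55, 7.57 and 7.38 on the Zeb1 vector arrays, against 8.73, 9.16 and 8.76 on the control vector arrays, a 2.62-fold fall (log2 change -1.39, SE 0.156, adjusted p = 6.6e-05). Its partner periplakin, Ppl, read 9.16, 9.32 and 9.21 in Zeb1 cells and 9.51, 9.72 and 9.67 in control cells. That fall, 1.33-fold, was the smallest of the 9 (log2 change -0.41, SE 0.102, adjusted p = 0.00888), and larger falls were seen in 21.4% of all tested genes. Both genes were read by a single probe set each, as were Jup, Pkp1 and Perp.

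Perp, a membrane protein needed for stable desmosomes in stratified epithelia of the mouse and a known p53 and p63 target, read 8.80, 8.70 and 8.51 on the Zeb1 vector arrays, against 12.34, 12.19 and 12.21 on the control vector arrays. It was 11.9-fold lower (log2 change -3.58, SE 0.095, adjusted p = 5.64e-09), with every Zeb1 vector array well above the floor. Of its relatives in the PMP22 and EMP family, 3 of 4 tested genes rose and 0 fell. Emp3 rose by 2.49 on the log2 scale (adjusted p = 8.45e-09), Emp2 by 0.49 and Emp1 by 0.40, and Pmp22 was not called (log2 change -0.16, adjusted p = 0.238).

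**Figure D3:**
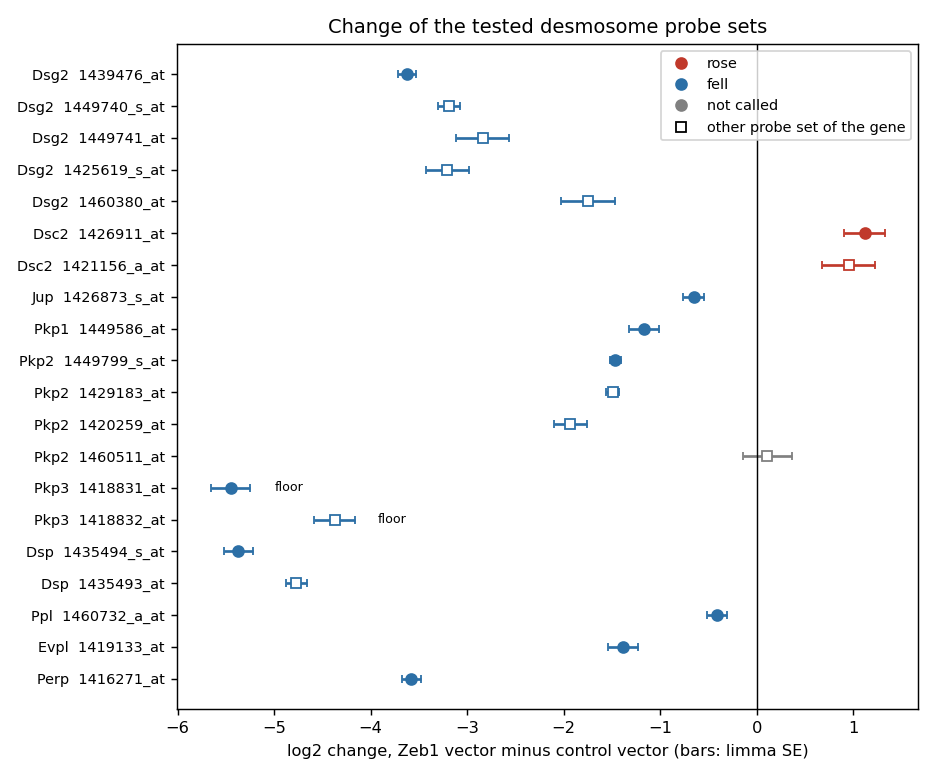
Log2 change, Zeb1 vector minus control vector, of the 20 tested desmosome probe sets, with limma standard errors; filled circles mark the brightest probe set of a gene, open squares its others, and "floor" a probe set with Zeb1 vector arrays at the floor. Probe sets of 1 gene share a direction except the uncalled Pkp2 probe set 1460511_at, and log2 changes run from -5.45 to 1.12.

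Of 9 further desmosomal cadherin, plakophilin and corneodesmosin genes 6 had a probe set of their own and 2 of these were tested. Pkp4, a plakophilin relative found at several junctions, fell by 0.46 (adjusted p = 0.000423), and corneodesmosin, Cdsn, was not called (log2 change 0.40, adjusted p = 0.214). Of the 4 other plakins, Eppk1 (epiplakin, a keratin-binding plakin) fell by 2.92 (adjusted p = 5.72e-07), Dst (dystonin, which includes the hemidesmosomal plakin) rose by 1.53 (adjusted p = 9.17e-06), and Plec and Macf1 were not called. In the cornified envelope list 4 of 6 tested genes fell and 1 rose. Tgm1, the crosslinking enzyme of that envelope, was at least 35.6-fold lower, with 2 Zeb1 vector arrays at the floor (log2 change -5.15). Kazn, a binding partner of periplakin, and Ivl, an envelope precursor, had log2 changes of at least 2.64 and 2.62 downward, also with Zeb1 vector arrays at the floor. Sprr1a, another precursor, rose by 1.18. Tgm1, Kazn and Ivl, all in the count of genes that fell, passed the filter through control vector arrays only, so they had to differ.

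Of 8 tested keratins, the filaments that desmosomes anchor, 4 fell and 0 rose. Krt7, Krt14 and Krt20 fell by at least 8.31, 3.01 and 2.33, with low signals in Zeb1 cells, and Krt8 by 0.16 (adjusted p = 0.0131), while the log2 change of its partner Krt18 was 0.03 (adjusted p = 0.697). Krt14 and Krt20 passed the filter through control vector arrays only, so they had to differ. Of 5 tested hemidesmosome genes 4 fell, and Itga6 rose by 0.65. Among those that fell were the laminin chains Lama3 (log2 change -5.41, a lower bound in size) and Lamb3 (-2.33) and the integrin Itgb4 (-2.91). In the adherens junction list 8 of 12 fell and 3 rose, with a median log2 change of -0.86, and in the tight junction list 8 of 10 fell and 0 rose, with a median of -3.42. These counts and medians include genes that passed the filter through control vector arrays only, so they had to differ. Those genes were Cdh3 in the adherens junction list, and Cldn3, Cldn4, Cldn7 and Marveld3 in the tight junction list. E-cadherin, Cdh1, fell by 4.01 (adjusted p = 9.14e-10). The desmosome median of -1.43 thus lay between these medians, a description with no test of the difference.

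Among regulators and sheddases of desmosomal cadherins 3 of 6 tested genes fell and 1 rose. The membrane protease St14 (matriptase) was at least 96.7-fold lower, with 1 Zeb1 vector array at the floor (log2 change -6.59). Grainyhead factor Grhl2, a transcriptional activator of epithelial junction genes, fell by 3.43 (adjusted p = 4.41e-08). Grhl1, known to activate a desmoglein gene in skin, was lower by at least 1.84, with 1 Zeb1 vector array at the floor. St14 and Grhl1, both in the count of genes that fell, passed the filter through control vector arrays only, so they had to differ. Adam10, a protease that can cut desmoglein 2, rose by 0.50 (adjusted p = 0.00359), and Adam17 and Prkca were not called. Of the heart intercalated disc list 2 genes were tested and both fell, Gja1 (connexin 43) by 0.62 and Tmem43 by 0.46.

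**Figure D4:**
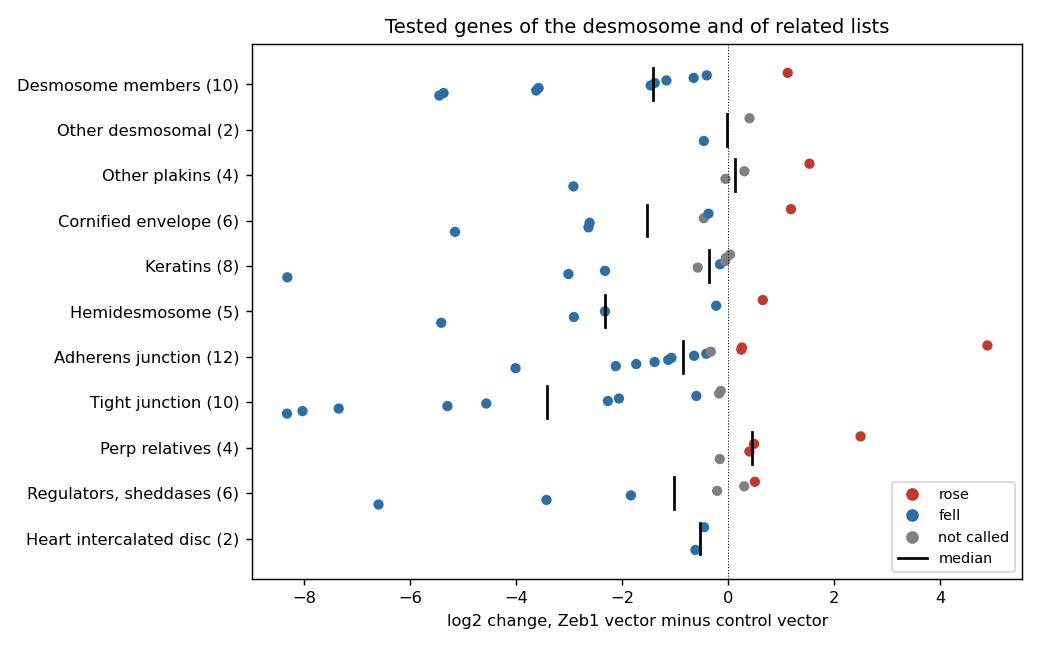
Log2 change, Zeb1 vector minus control vector (horizontal axis), of each tested gene in the desmosome and in 10 related lists, with the number tested in brackets; red points rose, blue points fell, grey points were not called, and black bars are list medians. The desmosome median is -1.43, with Dsc2 as its only red point.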

How the data were processed

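RNA from 6 cultures (3 Zeb1 vector, 3 control vector) was labelled with biotin for Affymetrix arrays, per the labels' protocols. The deposited values are log2 signals; MAS5, with no version given in the sources used here, is named in the submitters' processing notes. The linear mean trimmed by 2% at each end was 500 on every array. The 2 missing values were placed at the floor. Of 45101 probe sets, 34945 had 1 symbol, 932 had several, 9160 had none here and 64 were controls. Signals below the pooled 25th percentile (log2 4.45, linear 21.8) were raised to it. Probe sets at or above the array median on at least 3 arrays were tested (20594), and a gene took the call of its brightest tested probe set (11893 genes). The groups were compared by limma 3.58.1 under R 4.3.3 (lmFit, eBayes with intensity trend), Benjamini-Hochberg adjusted over all tested probe sets. The fit was tested on simulated data. Errors are limma's moderated SE, whose median was 0.147; 3 arrays per group limit the precision. Detection calls were not used. Folds with arrays at the floor, or a group mean under the 50th percentile, are lower bounds. Those named genes that were tested and had Zeb1 vector arrays at the floor passed the filter through control vector arrays only. Probe sets ending in _s_at can read several transcripts. The brightest probe sets of Dsp and Pkp2 and the only one of Jup are of this kind. Named genes were all members and, from each related list, up to 4 called genes with the largest changes, plus genes a sentence needs. Tight junction genes were counted, and some named, without their values. Genes not called, and neighbours in the cadherin cluster, were added after values were seen. Members and lists were chosen with earlier results of these data known. Same-numbered replicates were checked for pairing: deviations from group means correlated at 0.017, 0.014 and -0.039, and at -0.079 to 0.061 for the other pairs. These values gave no sign of pairing by number but cannot exclude it.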

Additional observations from a re-analysis of the deposited data

How the results depend on the processing

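Of 10 members 9 fell and 1 rose under 14 of 15 alternatives (other floors, no filter, normalization, variance model, ways of choosing probe sets, the replicate block, and leaving out each array). With the filter on all 6 arrays Pkp3 was not tested, and 8 of 9 fell and 1 rose. The median log2 change of the members was -1.29 when each gene took the mean of its probe sets, which takes in dimmer probe sets, and -1.46 to -1.36 when each array was left out. The number of probe sets called over all was 9493, and 8286 to 9217 when 1 array was left out. With the replicate block the number called was 9377, and the block changed no call of a member. Of single genes and probe sets, 267 of the recomputed values kept their direction and their side of the threshold, 6 lost the call, and 1 changed sign. The 6 are all of the Dsc2 probe set 1421156_a_at, and the cause was not tested. The 1 is the uncalled Pkp2 probe set 1460511_at, whose log2 change was -0.013 (without Zeb1 vector replicate 2) to 0.26 (without control vector replicate 1). Signal over background limits Pkp3 and the dimmer Dsg2 probe sets, whose changes move with the floor.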
